A study of Mus musculus with 10 samples.

Results

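Tnfaip3, Tnip1, Tnip3, Cflar, Birc2, Birc3, Traf1, Traf2 and Cyld encode proteins that attach, read or remove ubiquitin chains downstream of Toll-like and TNF receptors, or that act beside them to block cell death. These 9 genes were taken by name out of 22180 genes with a probe set of exactly 1 gene symbol. Where a gene had several probe sets, the one with the highest mean was taken, but each of the 9 had only 1. All 9 were among the 13371 genes tested, which are those above the array's median in at least 2 of the 10 arrays.

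The RNA came from splenic CD11c+ dendritic cells (DCs), antigen-presenting cells that were isolated with magnetic beads and measured on the Mouse Gene 2.0 ST platform of Affymetrix, 1 array per sample. The C3ar1-/-C5ar1-/- mice lacked both receptors for the complement fragments C3a and C5a, and their samples are called DRKO below. The other mice were WT. Mice had been injected with 100 µg CpG, an unmethylated DNA that signals through Tlr9, or with vehicle, 4 h before the cells were taken. There were 3 arrays of DRKO DCs after CpG, 3 of WT DCs after CpG, 2 of unstimulated DRKO DCs and 2 of unstimulated WT DCs. The labels give no age, strain background, sex or cell origin beyond the spleen, and they do not say whether each array came from a separate mouse, so p-values measure the spread between these samples, which may be partly technical.

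When a Toll-like or TNF receptor fires, ligases build ubiquitin chains on signalling proteins, and these chains recruit the kinases that switch on the transcription factor NF-kB. A20, the product of Tnfaip3, edits and caps these chains and is itself an NF-kB target, so that the pathway makes its own brake. In mice, loss of A20 from DCs leaves them spontaneously activated and leads to autoimmune inflammation. Tnip1 and Tnip3 encode ABIN-1 and ABIN-3, partners of A20, and a brake on NF-kB has been described for human ABIN-3. Cyld encodes another deubiquitinase that cuts such chains. Traf2 and Traf1 encode adaptors at TNF family receptors, Birc2 and Birc3 encode the ubiquitin ligases cIAP1 and cIAP2 that these adaptors carry, and Cflar encodes cFLIP, an inactive relative of caspase-8 that blocks death-receptor signalling.

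The promoter windows are those of the 4 members that hold the NF-kB consensus. Of these, Tnfaip3, Tnip1 and Tnip3 rose with CpG in both genotypes, while Cyld was the single member with lower values after CpG. Cflar, Birc2, Birc3 and Traf1 held no match and rose in both genotypes too. Traf2, also without a match, rose in WT and was not called in DRKO. The members that rose thus included some with a match and some without, and the part of a match in the rise was not tested. The windows are from RefSeq (GRCm38.p6), run from 250 bases before to 50 bases after a transcript start, and are written 5′ to 3′ on the gene's strand, with matches in capitals. All 9 members had a window, and Tnfaip3 and Birc2 had 2 each.
Tnfaip3 (chr10:19015361-19015660, minus strand): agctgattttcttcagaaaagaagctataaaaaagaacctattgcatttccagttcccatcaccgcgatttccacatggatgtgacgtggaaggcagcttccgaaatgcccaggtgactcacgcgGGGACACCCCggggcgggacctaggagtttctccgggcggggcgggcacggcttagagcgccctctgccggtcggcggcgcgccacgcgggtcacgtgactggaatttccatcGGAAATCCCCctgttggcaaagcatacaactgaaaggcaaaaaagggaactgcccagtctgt
Tnip1 (chr11:54962891-54963190, minus strand): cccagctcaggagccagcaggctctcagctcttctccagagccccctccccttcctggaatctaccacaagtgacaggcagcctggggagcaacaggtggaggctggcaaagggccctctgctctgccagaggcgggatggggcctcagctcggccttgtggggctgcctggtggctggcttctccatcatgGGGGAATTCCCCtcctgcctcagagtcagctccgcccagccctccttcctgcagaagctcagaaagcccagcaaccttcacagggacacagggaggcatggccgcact
Tnip3 (chr6:65590148-65590447, plus strand): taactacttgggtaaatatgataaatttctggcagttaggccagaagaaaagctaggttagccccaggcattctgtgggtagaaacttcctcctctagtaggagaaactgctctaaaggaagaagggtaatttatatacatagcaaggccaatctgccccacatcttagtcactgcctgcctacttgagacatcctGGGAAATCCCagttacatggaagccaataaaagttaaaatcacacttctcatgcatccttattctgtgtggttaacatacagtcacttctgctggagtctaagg
Cyld (chr8:88696778-88697077, plus strand): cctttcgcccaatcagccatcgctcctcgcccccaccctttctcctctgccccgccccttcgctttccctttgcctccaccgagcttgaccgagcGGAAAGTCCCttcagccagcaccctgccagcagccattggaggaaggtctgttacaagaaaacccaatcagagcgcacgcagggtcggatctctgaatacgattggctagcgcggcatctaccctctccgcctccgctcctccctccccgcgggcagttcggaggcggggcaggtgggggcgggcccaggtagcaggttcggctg
The 10-letter NF-kB consensus was searched on both strands. It matched in 4 of the 9 members, and in 5.14% of the 27025 genes with windows of this length. In Tnfaip3 it matched at 2 places, from -125 to -116 and from -12 to -3 relative to the transcript start, both in the first window. In Tnip1 a run of 3 overlapping matches covered -58 to -47, in Tnip3 1 match covered -54 to -45, and in Cyld 1 match covered -155 to -146. The IRF element (GAAA, any 2 bases, GAAA, on both strands) matched in 1 member, Cflar, 7 to 16 bases after the start, and in 3.99% of genes. Neither motif overlapped the other. A match is a description of letters in a window, and the absence of one in Birc2, Birc3, Traf1 and Traf2 says nothing of more distant sequence.

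Values are log2 intensities made by RMA, and array medians lay between 5.50 and 5.56. The DC markers Itgax, Flt3, Zbtb46, H2-Aa and H2-Ab1 were above the median on all 10 arrays. With CpG, 1 of these 5 fell in DRKO (median of the 5 -0.24) and 3 of 5 in WT (median -0.44), and none rose. Their mean was 11.09 to 11.28 after CpG and 11.40 to 11.47 unstimulated in DRKO, and 10.88 to 11.01 after CpG and 11.26 to 11.36 unstimulated in WT, without overlap, and the part of this shift in the CpG differences was not tested. C3ar1 was 5.27 to 5.64 in DRKO arrays and 5.80 to 6.59 in WT arrays, and C5ar1 was 4.42 to 4.99 in DRKO arrays and 5.51 to 7.32 in WT arrays; no source used here places the probes relative to the deleted parts, and these values therefore do not check the genotype. Markers of other cells were present. The mean of 12 neutrophil markers was 5.43 to 7.06 in DRKO arrays after CpG and 7.01 to 8.84 in WT arrays after CpG, and 5.54 to 5.99 in unstimulated DRKO arrays and 7.03 to 7.62 in unstimulated WT arrays. The mean of 10 red pulp macrophage markers was 8.97 in DRKO unstimulated 2 and 8.70 in DRKO CpG 3, and 10.29 to 10.71 in the other 8 arrays. That of 6 natural killer (NK) cell markers was 5.60 in DRKO unstimulated 2, 5.85 in DRKO CpG 3 and 6.25 to 7.34 elsewhere. In WT it was 6.57 to 7.06 after CpG and 6.25 to 6.33 unstimulated. Plasma cell marker means were higher after CpG without overlap in both genotypes, and B cell marker means were lower. The part of these shifts in the CpG differences was not tested. The Y-linked gene Eif2s3y was 7.71 to 8.96 in DRKO unstimulated 1, DRKO CpG 1 and DRKO CpG 2 and 2.56 to 3.58 in the other 7, and the labels do not state sex. Sample titles carry numbers, and 3 arrays (WT CpG 3, DRKO unstimulated 2 and DRKO CpG 3) have numbers of 20 and over. None of the unstimulated WT arrays does. The unstimulated genotype difference, the WT CpG effect and the difference of CpG effects are therefore unbalanced in title numbers. Within DRKO the title numbers, the Y-linked signal, the macrophage level and the NK cell level divide the arrays in the same way. The neutrophil, T cell, monocyte and plasmacytoid DC marker means divide them so too, and none of these can be told apart. The neutrophil mean was 7.01 in WT CpG 3, against 8.33 in WT CpG 1 and 8.84 in WT CpG 2, so it also follows title numbers there. In such bulk samples, fewer cells of a type and less RNA per cell cannot be told apart either.

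Most of the feedback genes rose with CpG in both genotypes. The 9 were chosen with earlier results of these data known, so the counts and medians below do not test the set. Values over all tested genes are given for scale only. In DRKO DCs, 7 of the 9 members rose and none fell, where 10.3% of all tested genes were called, 4.54% higher and 5.76% lower (limma, Benjamini-Hochberg adjusted p under 0.05 over 13371 genes), and 8 members had an unadjusted p under 0.05 (25% of all tested genes did). In WT DCs, 8 rose and 1, Cyld, fell, where 21.6% of all tested genes were called, 8.24% higher and 13.3% lower. In either genotype the CpG arrays of 8 members lay wholly above the unstimulated ones and those of 1, Cyld, wholly below. Over all tested genes, 15.2% lay wholly above and 22.5% wholly below in DRKO, and 21.2% and 31.2% in WT. The median log2 change of the 9 was 0.80 in DRKO and 0.89 in WT, against medians of -0.04 over all tested genes in each genotype. The 2 CpG comparisons rest on separate arrays but share 1 estimate of spread.

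**Figure D1:**
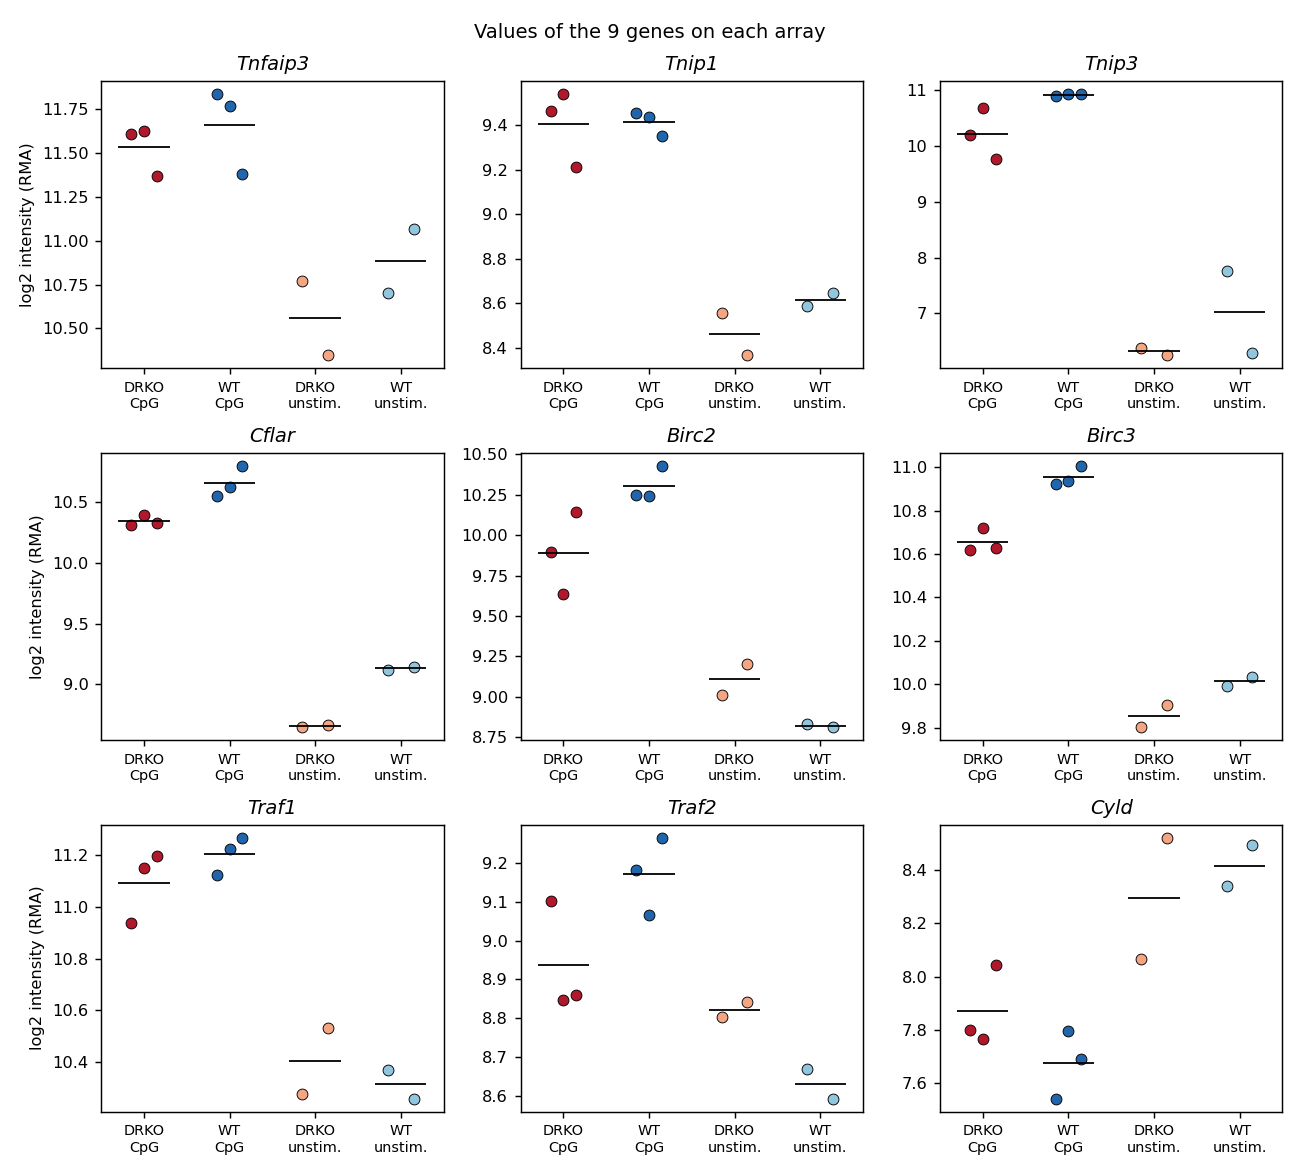
Each panel plots 1 gene, with log2 intensity on the vertical axis (scaled per panel and not starting at 0), each point an array and each bar the group mean, for DRKO CpG (n = 3), WT CpG (n = 3), DRKO unstimulated (n = 2) and WT unstimulated (n = 2). Of the 9 genes, 8 sit higher after CpG in both genotypes and Cyld sits lower, and Tnip3 spans the widest range, between 6.25 and 10.93.

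Tnfaip3, the gene of A20, rose in both genotypes. It measured 11.61, 11.63 and 11.37 in DRKO DCs after CpG, against 10.77 and 10.35 in unstimulated DRKO DCs. In WT DCs it measured 11.84, 11.77 and 11.38 after CpG, against 10.70 and 11.07 unstimulated. The CpG and unstimulated values did not overlap in either genotype. The rise was 0.98 ± 0.19 on the log2 scale in DRKO (SE, adjusted p = 0.0102, 1.97-fold) and 0.78 ± 0.19 in WT (adjusted p = 0.0138, 1.72-fold). Both calls depended on single arrays. The DRKO change was 0.77 (adjusted p = 0.0962) once DRKO unstimulated 2 was dropped. The WT change was 0.60 (adjusted p = 0.143) once WT unstimulated 1 was dropped and 0.69 (adjusted p = 0.0512) once WT CpG 1 was dropped.

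Of the A20 partners, Tnip3 gave the steepest response of the 9 genes. It measured 10.19, 10.68 and 9.77 in DRKO DCs after CpG, against 6.39 and 6.25 unstimulated. In WT DCs it measured 10.89, 10.92 and 10.93 after CpG, against 7.77 and 6.29 unstimulated. The 3 WT arrays after CpG were nearly equal, whereas WT unstimulated 1 stood 1.48 above WT unstimulated 2, and the CpG and unstimulated arrays were far apart in both genotypes. The rise was 3.89 ± 0.36 in DRKO (14.9-fold, adjusted p = 0.000347) and 3.89 ± 0.36 in WT (14.8-fold, adjusted p = 0.000103), the second largest of 13371 in each genotype. The size of the WT rise depended on the unstimulated pair: dropping WT unstimulated 1 gave 4.62, and dropping WT unstimulated 2 gave 3.15. The lowest Tnip3 value stood 0.72 above its array's median, the smallest such margin among the 9 members.

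Tnip1, which encodes the ubiquitin-binding partner ABIN-1, rose in both genotypes too. It measured 9.46, 9.54 and 9.21 in DRKO DCs after CpG, against 8.55 and 8.37 unstimulated. The WT values were 9.45, 9.44 and 9.35 after CpG, against 8.59 and 8.64 unstimulated. The CpG and unstimulated arrays did not overlap in either genotype. The rise was 0.94 ± 0.13 in DRKO (adjusted p = 0.00187) and 0.80 ± 0.13 in WT (adjusted p = 0.00165).

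Cyld, the deubiquitinase, had its lower values after CpG. It measured 7.80, 7.77 and 8.04 in DRKO DCs after CpG, against 8.07 and 8.52 unstimulated. The WT values were 7.54, 7.80 and 7.69 after CpG, against 8.34 and 8.49 unstimulated. The WT groups were well apart, while DRKO CpG 3 came close to DRKO unstimulated 1 without overlapping it. In DRKO the difference was -0.42 ± 0.16 (95% interval -0.77 to -0.07, adjusted p = 0.122) and did not pass. It was -0.65 when DRKO unstimulated 1 was dropped and -0.20 when DRKO unstimulated 2 was dropped. Cyld fell by 0.74 in WT (SE 0.16, adjusted p = 0.00770), though dropping WT unstimulated 2 ended that call (-0.66, adjusted p = 0.0784). The difference between the CpG effects, DRKO minus WT, was 0.32 ± 0.22 (adjusted p = 0.932). It was 0.089 when DRKO unstimulated 1 was dropped and 0.54 when DRKO unstimulated 2 was dropped.

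Cflar, the caspase-8 inhibitor, had closely spaced replicates and the second largest rise among the 9. It measured 10.31, 10.40 and 10.33 in DRKO DCs after CpG, against 8.65 and 8.67 unstimulated. WT DCs gave 10.55, 10.63 and 10.80 after CpG, against 9.12 and 9.15 unstimulated. The 4 groups did not overlap at all: unstimulated DRKO was lowest, then unstimulated WT, then DRKO after CpG, then WT after CpG. The rise was 1.69 ± 0.11 in DRKO (3.22-fold, adjusted p = 0.000126) and 1.53 ± 0.11 in WT (2.89-fold, adjusted p = 4.54e-05), and these calls held under every alternative run.

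The cIAP ligases rose too, and Birc2 was the member whose CpG effects lay furthest apart between genotypes. Birc2 measured 9.90, 9.63 and 10.14 in DRKO DCs after CpG, against 9.01 and 9.21 unstimulated. WT DCs gave 10.25, 10.24 and 10.43 after CpG, against 8.83 and 8.81 unstimulated. Unstimulated DRKO lay above unstimulated WT, and DRKO after CpG lay below WT after CpG. Birc2 rose by 0.78 ± 0.15 in DRKO (1.72-fold, adjusted p = 0.0109) and 1.48 ± 0.15 in WT (2.80-fold, adjusted p = 0.000171). The difference between these effects was -0.70 ± 0.22 (95% interval -1.18 to -0.22, unadjusted p = 0.00819, adjusted p = 0.761 by limma) and did not pass over all genes. The DRKO rise missed the threshold when DRKO unstimulated 1 was dropped (0.69, adjusted p = 0.0727) or when only the 5 DRKO arrays were fitted (adjusted p = 0.0725).

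Birc3, whose gene lies next to Birc2 on chromosome 9 with no annotated gene between them, rose in both genotypes. It measured 10.62, 10.72 and 10.63 in DRKO DCs after CpG, against 9.80 and 9.90 unstimulated. In WT the values were 10.92, 10.94 and 11.01 after CpG, against 9.99 and 10.03 unstimulated. As for Cflar, the 4 groups were separate and came in the same order. The rise was 0.80 ± 0.10 in DRKO (adjusted p = 0.00159) and 0.94 ± 0.10 in WT (adjusted p = 0.000244), with a difference of effects of -0.14 (95% interval -0.47 to 0.19). Birc2 and Birc3 encode related proteins, and whether their probes cross-hybridise was not tested.

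The adaptor Traf1, a TRAF without a ligase domain that pairs with Traf2, rose in both genotypes. It measured 10.94, 11.15 and 11.19 in DRKO DCs after CpG, against 10.28 and 10.53 unstimulated. In WT the values were 11.12, 11.22 and 11.27 after CpG, against 10.37 and 10.26 unstimulated. The 2 genotypes overlapped in both states. The rise was 0.69 ± 0.13 in DRKO (adjusted p = 0.00887) and 0.89 ± 0.13 in WT (adjusted p = 0.000911). It missed the threshold in DRKO when DRKO unstimulated 1 was dropped (0.56, adjusted p = 0.0665) or when only the DRKO arrays were fitted (adjusted p = 0.0661).

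Traf2, which encodes the adaptor that brings cIAPs to the receptor, had the smallest CpG differences of the 9. It measured 9.10, 8.85 and 8.86 in DRKO DCs after CpG, against 8.80 and 8.84 unstimulated. In WT the values were 9.18, 9.07 and 9.27 after CpG, against 8.67 and 8.59 unstimulated. In DRKO, CpG 2 and CpG 3 lay barely above the higher unstimulated array. The difference in DRKO was 0.11 ± 0.12 (95% interval -0.15 to 0.38, adjusted p = 0.634) and 0.031 when DRKO CpG 1 was dropped, and Traf2 rose by 0.54 ± 0.12 in WT (1.45-fold, adjusted p = 0.00998). The test of the difference between the effects gave -0.43 ± 0.17 (unadjusted p = 0.0314, adjusted p = 0.851), and did not pass over all genes. Dropping either unstimulated WT array ended the WT call (adjusted p = 0.0523 for the first and 0.0831 for the second).

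**Figure D2:**
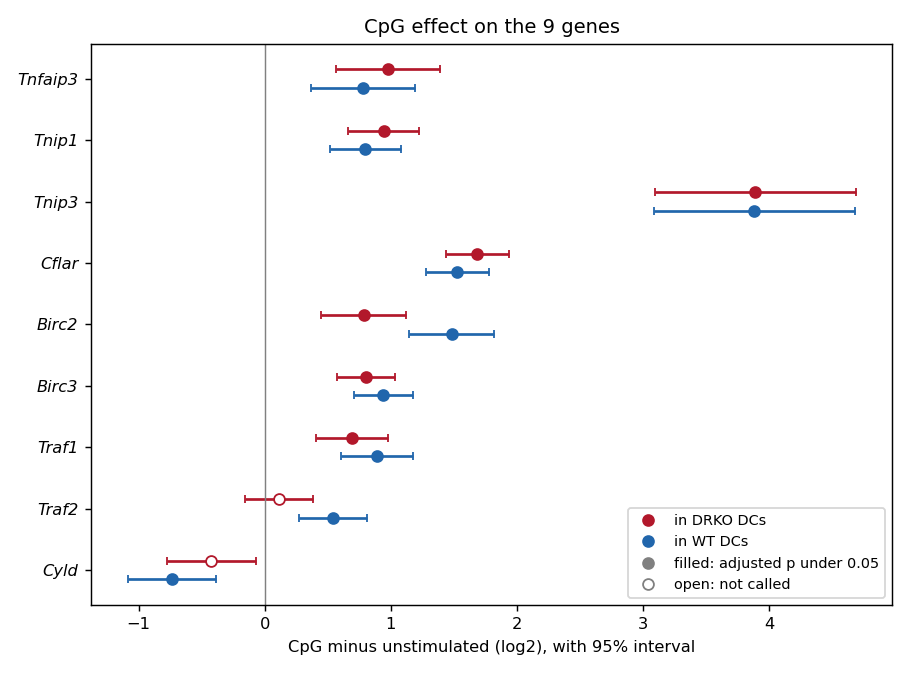
For each gene the plot gives CpG minus unstimulated on the log2 scale with its 95% interval from limma, in DRKO DCs (5 arrays) and WT DCs (5 arrays), filled where the adjusted p was under 0.05. Tnip3 stands apart at 3.89 in both, Birc2 shows the widest gap between genotypes (0.78 in DRKO, 1.48 in WT), and Traf2 and Cyld are open in DRKO.

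None of the 9 members passed the tests between genotypes. After CpG, 0 of 9 were called (0.12% of all tested genes were, 0.0524% higher and 0.0673% lower), 3 had an unadjusted p under 0.05 by limma (14.3% of all tested genes did), and the 3 arrays of each genotype did not overlap for 4 members, all lower in DRKO, where 7.58% of all tested genes were lower without overlap. These 4 were Tnip3, Cflar, Birc2 and Birc3. Tnip3 differed by -0.70 ± 0.32 (adjusted p = 0.358), Birc2 by -0.41 ± 0.14 (adjusted p = 0.202), Cflar by -0.31 ± 0.10 (adjusted p = 0.192) and Birc3 by -0.30 ± 0.09 (adjusted p = 0.179). The interval for Tnip3 reached from -1.42 to 0.01 and thus just included 0. Tnip1 differed by -0.01 (95% interval -0.26 to 0.24) and Tnfaip3 by -0.13 (95% interval -0.50 to 0.24). Traf1 differed by -0.11 (95% interval -0.37 to 0.14), Traf2 by -0.23 (95% interval -0.47 to 0.01) and Cyld by 0.19 (95% interval -0.12 to 0.51).

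Without stimulation, 0 of 9 were called (0.00748% of all tested genes were) and 1, Cflar, had an unadjusted p under 0.05 by limma (4.63% of all tested genes did). Cflar differed by -0.47 ± 0.12 (95% interval -0.74 to -0.20, adjusted p = 0.862), Tnip3 by -0.71 ± 0.39 and Tnfaip3 by -0.32 ± 0.20. The Tnip3 difference rested on 1 array, and was 0.03 when WT unstimulated 1 was dropped. That of Tnfaip3 was -0.14 when WT unstimulated 2 was dropped and -0.11 when DRKO unstimulated 2 was dropped. The genotypes did not overlap for 5 members: Cflar, Birc3 and Tnip1 were lower in DRKO (15.9% of all tested genes were) and Birc2 and Traf2 were higher (18.3%).

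Cflar and Birc3 lay lower in DRKO without overlap in both states, while Birc2 lay higher without stimulation and lower after CpG. Of all tested genes, 15.9% lay lower without overlap unstimulated and 7.58% after CpG. The share with either pattern over both states was not counted. Averaged over stimulation, a contrast chosen after its values were seen, DRKO minus WT was -0.39 ± 0.08 for Cflar (unadjusted p = 0.000475, adjusted p = 0.116), and 0 of 9 members were called in that contrast (0.0972% of all tested genes were). Neutrophil marker means were lower in DRKO without stimulation and reached the lowest WT array after CpG, with 4 to 10 of 12 above the array median in DRKO arrays and 9 to 12 in WT arrays. With their mean as a covariate the Cflar difference after CpG was -0.40, that of Birc2 -0.68 and that of Birc3 -0.33, while that of Tnfaip3 turned to 0.28 and that of Tnip1 to 0.19, all uncalled. Without stimulation the same covariate gave 0.036 for Birc2 (0.29 without the covariate), -0.55 for Cflar and -0.19 for Birc3. Because neutrophil marker means differed by genotype, this covariate overlaps with genotype, and the values fitted with it cannot separate them. When Y-linked signal was the covariate, the values after CpG were -0.32 for Cflar, -0.24 for Birc2 and -0.28 for Birc3. That of Birc2 without stimulation was 0.44 with this covariate. Y-linked signal was high in DRKO arrays only, so this covariate overlaps with genotype and these values cannot separate them. Among arrays titled under 20, DRKO minus WT after CpG was -0.24 for Cflar, -0.48 for Birc2 and -0.26 for Birc3, and between the 2 arrays titled 20 and over it was -0.47, -0.28 and -0.38.

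In the test of whether CpG acted differently in the genotypes, 0 of 9 members were called (0.00748% of all tested genes were), and 2, Birc2 and Traf2, had an unadjusted p under 0.05 by limma (5.65% of all tested genes did). For Tnip3 the difference of effects was 0.01 with a 95% interval of -1.12 to 1.14, which leaves room for a change of over 1 on the log2 scale either way. It was 0.20 (95% interval -0.39 to 0.78) for Tnfaip3, 0.15 (95% interval -0.25 to 0.55) for Tnip1, 0.16 (95% interval -0.19 to 0.51) for Cflar and -0.20 (95% interval -0.60 to 0.20) for Traf1.

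**Figure D3:**
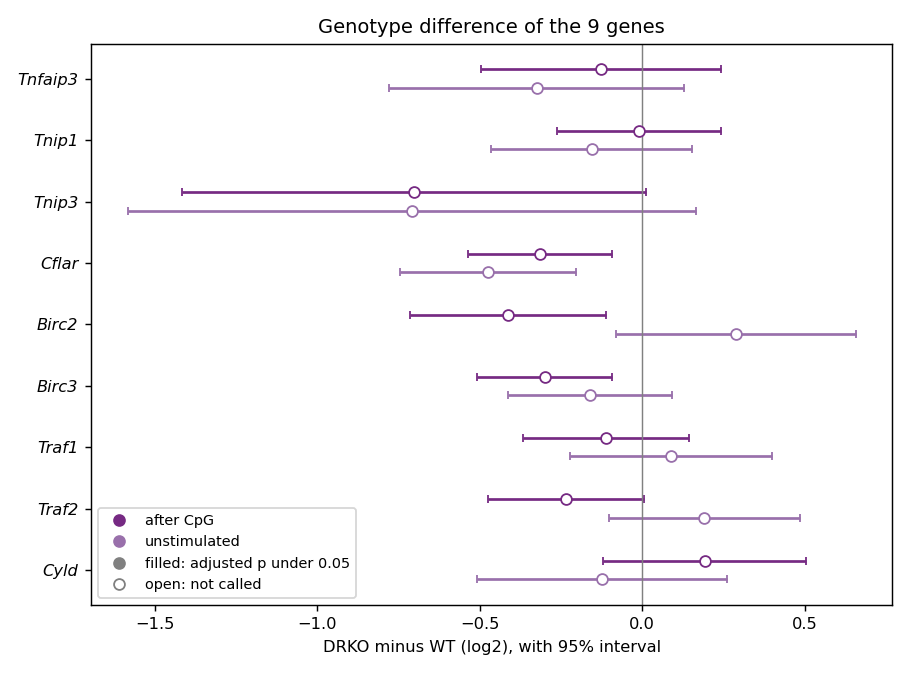
The plot gives DRKO minus WT on the log2 scale with its 95% interval from limma, after CpG (3 arrays a genotype) and unstimulated (2 arrays a genotype). All points are open because none passed, and Cflar lies left of 0 with both intervals clear of it.

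The members resembled each other in pattern to different degrees. After each gene was centred on its own mean, the root mean square difference between Birc3 and Traf1 over the 10 arrays was 0.14, and between Tnfaip3 and Tnip1 it was also 0.14, the smallest of the 36 pairs. The largest, 2.27, was between Tnip3 and Cyld. Outside the 9, the genes nearest to Tnfaip3 were Ptger4, a prostaglandin E receptor, at 0.13, Arhgap31 at 0.13 and Ehd1, which acts in endocytic recycling, at 0.14, where the median gene lay at 0.52. Nearest to Tnip3 were Slamf1 at 0.45, the cytokine gene Il6 at 0.51 and Car13, a carbonic anhydrase, at 0.52, against a median of 2.00. Nearest to Cflar were the phosphatase gene Ptpn1 at 0.14, Atp6v0a1, a subunit of the vacuolar proton pump, at 0.14 and Adgrg6, an adhesion receptor, at 0.14, against a median of 0.85. The measure rewards genes with a CpG effect of the same size, and Slamf1, Il6 and Car13 rose by 2.83, 3.06 and 2.74 in DRKO and by 3.48, 3.09 and 3.30 in WT.

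Around the 9 genes, 40 others of the same ubiquitin and kinase relay were listed, of which 36 were tested. The rest, Spata2, Traf3, Ripk1 and Chuk, were not among the genes tested and were not analysed here. With CpG, 5 rose and none fell in DRKO DCs, and 14 rose and 2 fell in WT DCs. The background was 4.54% risen and 5.76% fallen in DRKO and 8.24% and 13.3% in WT. The median log2 change over the 36 was 0.21 in DRKO and 0.27 in WT. These lists too were chosen with earlier results of these data known, so their counts do not test them as sets.

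Among the A20 partners, Tnip2, which encodes the remaining ABIN protein, rose by 1.16 ± 0.23 in DRKO (adjusted p = 0.0108) and 1.21 ± 0.23 in WT (adjusted p = 0.00406), so that all 3 Tnip genes rose in both genotypes. Itch, a ubiquitin ligase that works with A20, differed by -0.89 in DRKO (adjusted p = 0.0596) and fell by 1.34 in WT (adjusted p = 0.00529). Itch measured 8.35, 9.17 and 9.10 in DRKO DCs after CpG, against 9.44 and 10.08 unstimulated, and 8.09, 8.59 and 8.39 in WT DCs after CpG, against 9.73 and 9.66 unstimulated. The groups were apart within each genotype. Of the other A20 partners, Tax1bp1 differed by 0.53 in DRKO and 0.55 in WT (adjusted p = 0.105 in DRKO and 0.0594 in WT) and Rnf11 was not called.

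In the linear ubiquitin group, 0 of 6 rose in DRKO and 2 of 6 in WT. Of all tested genes, 4.54% rose in DRKO and 8.24% in WT. Otulin, which cuts linear chains, differed by 0.53 ± 0.18 in DRKO (adjusted p = 0.0954) and rose by 1.07 ± 0.18 in WT (adjusted p = 0.00231). Rnf31, the catalytic subunit of the linear ubiquitin ligase, differed by 0.23 in DRKO and rose by 0.72 in WT, and its partner subunits Rbck1 and Sharpin were not called. Of the TRAF and IAP relatives, the same 3 of 7 rose in DRKO and in WT. Traf6, the ligase downstream of Toll-like receptors, rose by 0.86 in DRKO and 0.60 in WT, Tank, an adaptor of the TRAF family, by 0.59 and 0.72, and Map3k14, the kinase NIK that cIAPs mark for destruction, by 0.47 and 0.57. Xiap was not called in either.

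Among the receptor and death complex genes, 0 of 7 rose in DRKO, where Casp8, the protease that cFLIP restrains, differed by 0.43 and did not pass, and 3 of 7 rose in WT (Tnfrsf1b by 0.43, Mlkl by 0.63 and Casp8 by 0.70). Of the 12 kinases and E2 enzymes tested, 1 rose in DRKO, and 5 rose and 1 fell in WT. Among all tested genes, 4.54% rose and 5.76% fell in DRKO, and 8.24% rose and 13.3% fell in WT. The NF-kB kinase relative Ikbke rose by 1.61 ± 0.34 in DRKO (adjusted p = 0.0159) and 2.52 ± 0.34 in WT (adjusted p = 0.000695). Tab1, a subunit of the TAK1 kinase complex, differed by 0.03 in DRKO (adjusted p = 0.941) and fell by 0.73 in WT (adjusted p = 0.0141), and the difference between these effects was not called (0.76 ± 0.25, adjusted p = 0.773). Tab2 (0.47), Ikbkb (0.37), Tbk1 (0.45) and Peli1 (0.65) rose in WT.

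None of the 36 was called between genotypes in either state or in the difference of CpG effects. Few of all tested genes were: 0.12% after CpG, 0.00748% without stimulation and 0.00748% in the difference of effects. By limma, 6 of 36 had an unadjusted p under 0.05 after CpG, 0 without stimulation and 3 in the difference of effects, against 14.3%, 4.63% and 5.65% of all tested genes. The 3 smallest after CpG were Ikbke at -1.13 ± 0.31 (adjusted p = 0.133), Rnf31 at -0.47 ± 0.13 (adjusted p = 0.144) and Tab1 at 0.54 ± 0.16 (adjusted p = 0.158). Ikbke measured 8.22, 7.54 and 6.76 in DRKO DCs after CpG and 8.58, 8.93 and 8.40 in WT DCs after CpG, with no overlap and a wide spread in DRKO.

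**Figure D4:**
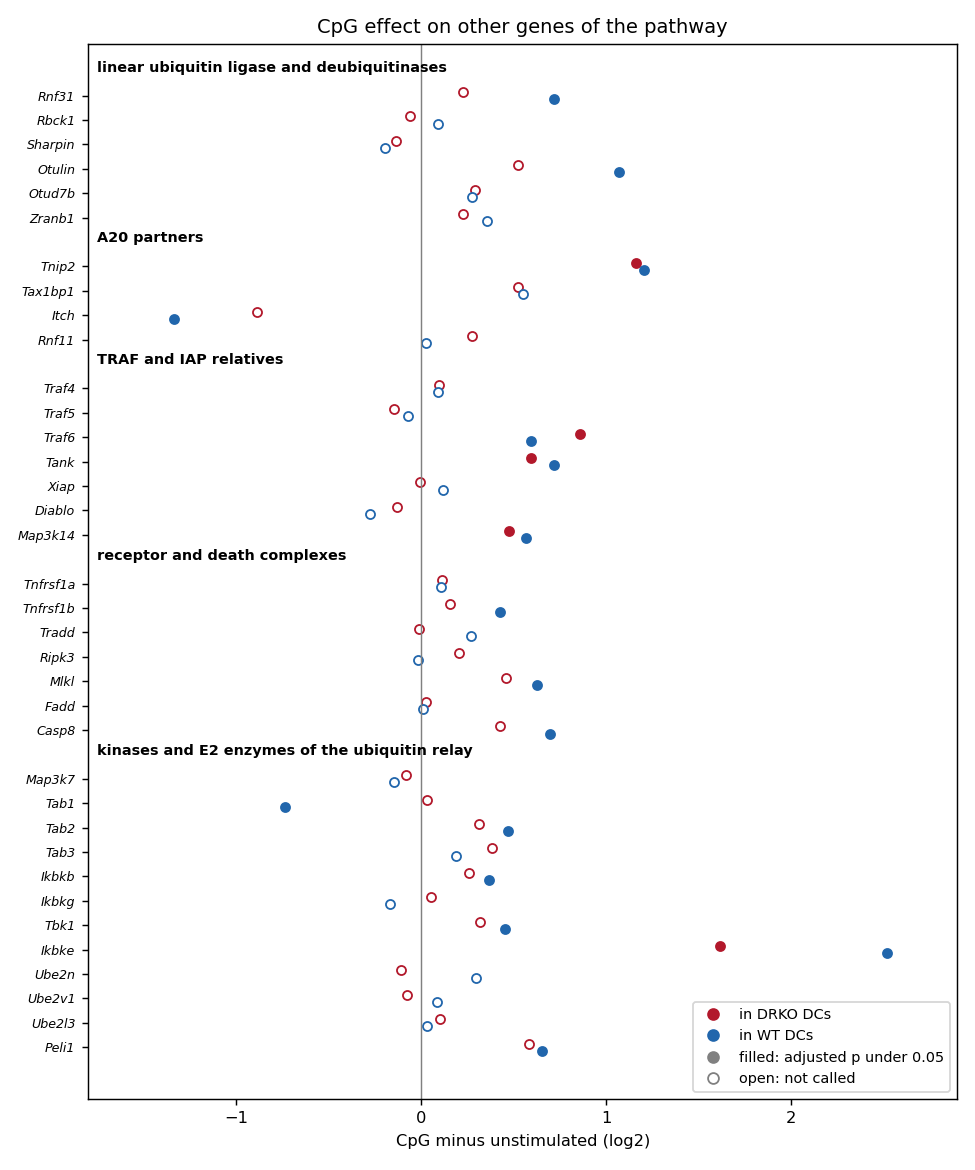
The plot gives CpG minus unstimulated on the log2 scale for the 36 tested genes of the wider relay, grouped by role, in DRKO DCs and WT DCs, with filled points where the adjusted p was under 0.05. Ikbke lies furthest right (1.61 in DRKO, 2.52 in WT) and Itch furthest left (-0.89 in DRKO, -1.34 in WT).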

How the data were processed

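The deposited table holds log2 intensities for 41345 probe sets on 10 arrays, which the authors made with RMA and Affymetrix Expression Console, per the submitters' processing notes. RMA corrects background, normalizes between arrays and summarises probes. Tool versions and whether 1 run covered all arrays are not stated in any source used here. An amplification kit is named for a first batch of samples without saying which, per the labels' protocols. Of the probe sets, 23521 had 1 gene symbol, and 23328 of these matched the reference gene table by identifier (GRCm38.p6, used for names and neighbours only).

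A linear model of 4 group means over all 10 arrays was fitted with limma 3.58.1 in R 4.3.3 (6 residual and 4.49 prior degrees of freedom), for 5 contrasts. Tests were two-sided with Benjamini-Hochberg adjustment over 13371 genes and a threshold of 0.05, and values after ± are standard errors. The pipeline was tested on simulated data. All 9 members, the listed relay genes and, for 3 members, the 3 nearest genes were named by rule. The members and lists were chosen with earlier results of these data known. Alternatives covered the filter, the variance model, the arrays fitted, title numbers, normalization, probe sets, covariates and each array left out. The number of arrays limits the precision. Plots used matplotlib 3.10.9 (Python 3.11.15).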

Additional observations from a re-analysis of the deposited data

How the results depend on the processing

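In every alternative run, 0 of the 9 members were called between genotypes after CpG, without stimulation or in the difference of CpG effects. The count called with CpG was 5 to 7 in DRKO and 7 to 9 in WT over the fits that each left out 1 array, and 5 in DRKO when only the 2 groups compared were fitted. The other alternatives gave 7 and 9.

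Counts over all genes moved more. With CpG, leaving out 1 array gave 423 to 1909 genes in DRKO (main 1377) and 1277 to 3226 in WT (main 2885), and fitting only the 2 groups gave 402 in DRKO. After CpG the genotype count was 16, and leaving out 1 array gave 2 to 267. It was 46 with robust variances, 3 with only the 2 groups, 296 with title series as a block, 90 with title numbers under 20 only, 800 with the Y-linked covariate and 6 with the neutrophil covariate. Without stimulation it was 1, with 1 to 2 when 1 array was left out, 12 with only the 2 groups, 2 with the title block, 23 with title numbers under 20 only and 407 with the Y-linked covariate. The difference of effects gave 1 gene, with 0 to 1 when 1 array was left out, 2 with title numbers under 20 only, and 0 with the title block, quantile normalization, median centring or the neutrophil covariate. The causes were not tested.

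Direction turned only in member differences that no test had called. With the title block, the Tnip3 difference of effects was -0.13. With title numbers under 20 only, Tnfaip3 gave -0.073 in the difference of effects, Traf1 -0.038 without stimulation and Tnip1 0.056 after CpG. Median centring put Tnip1 after CpG at 0.0020. With the Y-linked covariate, Cyld without stimulation was 0.066, Traf1 after CpG 0.013 and the Tnip3 difference of effects -0.024. With the neutrophil covariate, Tnfaip3 was 0.059 without stimulation and 0.28 after CpG, Tnip1 was 0.031 without stimulation and 0.19 after CpG, and Traf1 without stimulation was -0.061. Leaving out 1 array gave -1.45 to 0.0295 for Tnip3, -0.038 to 0.22 for Traf1 and -0.35 to 0.10 for Cyld without stimulation, -0.075 to 0.087 for Tnip1 after CpG, and -0.014 to 0.41 for Tnfaip3 and -0.73 to 0.75 for Tnip3 in the difference of effects. Among uncalled differences that kept their direction, the same fits gave -0.27 to -0.039 for Tnfaip3 after CpG, down to -0.033 for Traf1 and 0.11 for Cyld after CpG, -0.25 to -0.061 for Tnip1 without stimulation, and 0.053 to 0.24 for Tnip1 and -0.33 to -0.073 for Traf1 in the difference of effects.

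No paired analysis was possible because the labels give the samples no replicate numbers. Groups of 2 and 3 arrays, 1 time and 1 dose limit the precision.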
